A study of Mus musculus with 2 samples.

Results

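The mouse Zfp genes are the zinc finger protein genes whose symbol is Zfp followed by a digit, and their transcript levels were followed in CD11b+ cells of subcutaneous tumours. Members were chosen by summed reads: they are the protein-coding Zfp genes with at least 500 reads summed over the control and the knockout library. Of 394 protein-coding Zfp genes among the 49585 genes of the count table, 199 qualified, 148 had fewer reads and 47 had none in either library. The 199 members held between 512 and 335281 reads, and 65 of them held under 1000. Just above the minimum were Zfp738, with 182 control and 330 knockout reads, and Zfp873, with 384 and 129. Just below it were Zfp251, with 331 and 162, and Zfp518b, with 251 and 242. Zfp949 was included for its large difference between the libraries, so every value of these libraries below is a description.

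Tumours had been grown under the skin from mouse pancreatic cancer cell lines that the labels do not name. Both groups were NRP2f/fCSF1R-iCRE mice on a BL6 background, whose Nrp2 alleles are flanked by loxP sites and whose inducible Cre is driven by the Csf1r promoter, active in monocytes and macrophages. The test group, labelled NRP2 KO, was injected with tamoxifen every day from the time tumours could be felt, and the labels name no tamoxifen for the control group. The drug and the deletion therefore cannot be told apart. Tumours were taken after 15 days, and cells bearing CD11b, an integrin of monocytes, macrophages and granulocytes, were pulled out with magnetic beads. RNA of 3 animals was pooled into 1 library per group. Nothing used here gives the age of the mice.

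The control library held 64153676 reads and the knockout library 68554172. With 1 library per group there was no replicate error to compare a difference with, so no test was made. Levels are in CPM, reads divided by the TMM-scaled library size, and ratios are knockout over control. Each ratio has a 95% interval that covers counting error only, from exact conditional binomial limits. Reads were first divided by an estimate of the reads that 1 captured fragment was worth, 47 in the control and 24 in the knockout library. The estimate is the median reads of genes with more than 4 reads in 1 library and 0 in the other. Such genes may hold more than 1 fragment, and the error of the estimate is not in the interval. The interval leaves out differences between animals. Nrp2 itself, the targeted gene, had 9686 control and 1017 knockout reads, a ratio of 0.103 (95% interval 0.072 to 0.144). Itgam, which encodes CD11b, was at 294 and 422 CPM, and C1qa, a macrophage complement gene, at 3117 and 2876 CPM.

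Most Zfp proteins carry rows of C2H2 zinc fingers, short loops folded around a zinc ion, each of which reads a few bases of DNA. Many of them also have a KRAB box, which recruits the corepressor TRIM28 and, through it, the histone methyltransferase SETDB1 and heterochromatin proteins, a route best known for silencing transposable elements. KRAB genes arose largely by tandem duplication and lie in clusters on the chromosomes. A small branch of the family, Zfp36 and its relatives, has CCCH fingers instead, binds AU-rich elements of messenger RNA and speeds their decay, and is well known in macrophages as a brake on cytokine messages. In the predicted proteins of the members, 97 had a KRAB box and 102 had none, with a median of 12 C2H2 fingers in the former and 7 in the latter.

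Promoter sequence was compared because the 5 members with a ratio above 4 all had a KRAB box. Zfp949, Zfp948 and Zfp959 were the 3 of these with an entry in the RefSeq table (GRCm38.p6). The 250 bases before the annotated start of each gene are printed 5′ to 3′ on the strand of the gene, all 3 on the plus strand, with CpG dinucleotides in capitals. The Zfp949 window lies at chr9:88547770-88548019, that of Zfp948 at chr17:21566728-21566977 and that of Zfp959 at chr17:55891843-55892092.
Zfp949: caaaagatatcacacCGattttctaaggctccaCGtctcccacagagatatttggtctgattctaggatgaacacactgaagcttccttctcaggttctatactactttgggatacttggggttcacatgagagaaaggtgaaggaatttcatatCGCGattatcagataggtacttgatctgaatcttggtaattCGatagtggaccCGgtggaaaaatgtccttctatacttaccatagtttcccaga
Zfp948: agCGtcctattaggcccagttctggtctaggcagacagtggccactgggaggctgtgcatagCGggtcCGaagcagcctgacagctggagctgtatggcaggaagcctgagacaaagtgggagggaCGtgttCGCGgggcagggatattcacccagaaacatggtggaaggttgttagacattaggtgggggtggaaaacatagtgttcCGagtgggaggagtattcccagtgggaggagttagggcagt
Zfp959: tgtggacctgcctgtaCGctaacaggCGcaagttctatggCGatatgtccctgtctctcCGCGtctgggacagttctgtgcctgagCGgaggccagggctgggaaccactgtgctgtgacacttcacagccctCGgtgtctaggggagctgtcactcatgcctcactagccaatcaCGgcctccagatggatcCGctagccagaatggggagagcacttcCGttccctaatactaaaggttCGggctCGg
The Zfp949 window had a GC content of 41.2% and 6 CpG sites. The Zfp948 window had 56.4% GC and 7 CpG sites, and the Zfp959 window 58.4% GC and 12. The median number of CpG sites was 9 over the 84 KRAB members with an entry, 17 over the 78 members without a KRAB box and 16 over 8054 protein-coding genes with at least 500 reads.

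Short motifs were searched on both strands of the same windows in the 162 members with an entry, and none of the 4 motifs contains another. CCAAT, the letters of the CCAAT box, was in 47.5% of members, 52.4% of KRAB members, 36.2% of the 8054 expressed genes and 34.5% of all 27025 promoters in the table. CCGGAAG, an ETS core, was in 18.5% of members, 15.4% of expressed genes and 7.05% of all promoters. The palindromic NRF1 motif of 10 letters was in 3.70% of members, 4.76% of KRAB members, 1.81% of expressed genes and 0.781% of all promoters. TATAAA, the TATA box, was in 4.94% of members, 6.16% of expressed genes and 13.0% of all promoters. Of the printed windows only that of Zfp959 held one of these motifs, CCAAT.

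Zfp949 had the largest ratio of all members and differed by far more than any other. It encodes a KRAB protein with 11 fingers and lies at chr9:88548020-88571061 on the plus strand (GRCm38). It had 44 reads (0.670 CPM) in the control library and 2082 reads (31.1 CPM) in the knockout library, so it was nearly silent in the former. Per kb of exon its knockout level was 7.56 CPM, beside a median of 7.05 over all genes with at least 500 reads. The ratio was 45.9 (95% interval 7.75 to 2298), the eighth highest of 10306 genes with at least 500 reads. The 44 control reads were fewer than the estimated reads of 1 fragment. Set against 141 reads, the estimated worth of 3 fragments, the knockout level would be 14.5 times as high. Zfp949 was the only member whose interval lay wholly above 2-fold, against 1.14% of all genes, and no member had one wholly below the corresponding lower limit, against 1.25%. In the authors' deposited table its log2 fold change was 5.55, with a p-value of 6.5e-05 and an adjusted p-value of 0.331. Adjusted p-values under 0.05 were found for 0 of the 199 members in the authors' deposited table, and Zfp949 was the 1 member with an unadjusted p-value under 0.05. Over all 18864 genes of the authors' deposited table the counts were 0 and 794.

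The difference at Zfp949 was not shared by the genes around it. The 7 other genes with at least 500 reads within 500 kb had ratios between 0.372 and 1.43. Nt5e, which encodes the adenosine-producing ectoenzyme CD73, had 3822 and 5575 reads (ratio 1.43, 95% interval 1.11 to 1.86). Bcl2a1d, a survival gene of the Bcl2 family, had 8762 and 3328 reads (ratio 0.372, 95% interval 0.297 to 0.466), and its relative Bcl2a1a had 5372 and 3032 (ratio 0.553). Snx14, Syncrip and Snhg5, with ratios of 0.909, 1.28 and 1.29, lie nearer on the side of the chromosome start. The exons of Zfp949 shared no 50-base word with another gene. It overlapped only Gm26461, a small noncoding gene with 0 reads in both libraries. The nearest other Zfp gene, Zfp280d, is 16.2 Mb away, so Zfp949 lies outside the clusters described below.

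**Figure D1:**
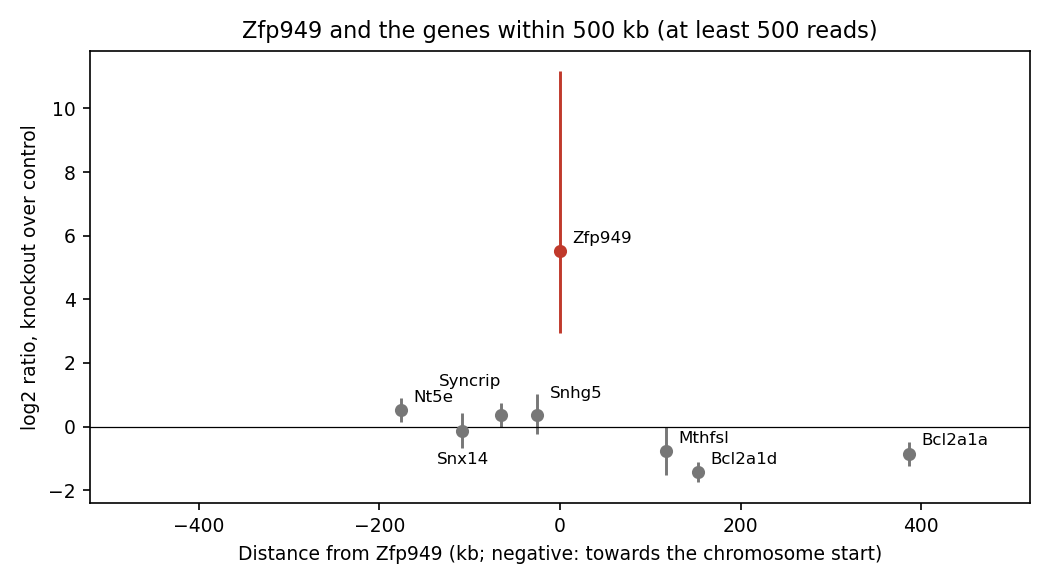
log2 ratios (knockout over control) of Zfp949 (red) and the 7 other genes with at least 500 reads within 500 kb (grey), by distance from Zfp949 in kb. Bars are 95% counting intervals. Zfp949 stands at 5.52 and its neighbours between the values of Bcl2a1d and Nt5e, on both sides of 0.

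Beyond Zfp949, the members leaned towards higher levels in the knockout library by a small amount. Of the 199 members, 17 were higher in the knockout library by 2-fold or more (8.54%) and 5 were lower by as much (2.51%), against 5.42% and 5.69% of all 10306 genes with at least 500 reads. In either direction that made 22 members, the same share as the 11.1% of all genes. A log2 ratio above 0 was seen in 137 members (68.8%) and in 52.3% of all genes. The median log2 ratio of the members was 0.24, with an interquartile range of -0.08 to 0.60, and that of all genes was 0.03. Without Zfp949 the median was also 0.24. In these bulk libraries a difference in RNA per cell cannot be told apart from a difference in which cells were present.

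Members wholly lower were few beside genes at large. The interval lay wholly below 1 for 4 members (2.01%), against 14.4% of all genes, and wholly above 1 for 30 members (15.1%), against 17.1%. Members had fewer reads than other genes, a median of 1570 against 4314, which widens their intervals. The upper count rested on the scaling: 19 members were wholly above 1 with upper-quartile factors and 19 with library totals alone. The 11 whose intervals then reached 1 were Zfp106, Zfp207, Zfp280c, Zfp281, Zfp367, Zfp36l1, Zfp609, Zfp622, Zfp810, Zfp942 and Zfp959. A change of scaling shifts all genes alike, so the median of the members lay 0.21 above that of all genes under each of the 5 scalings. The share of all genes wholly above 1 is not given for upper-quartile factors or library totals. The counts of 19 therefore cannot be compared with genes at large. Under library totals alone 128 members were above 0.

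**Figure D2:**
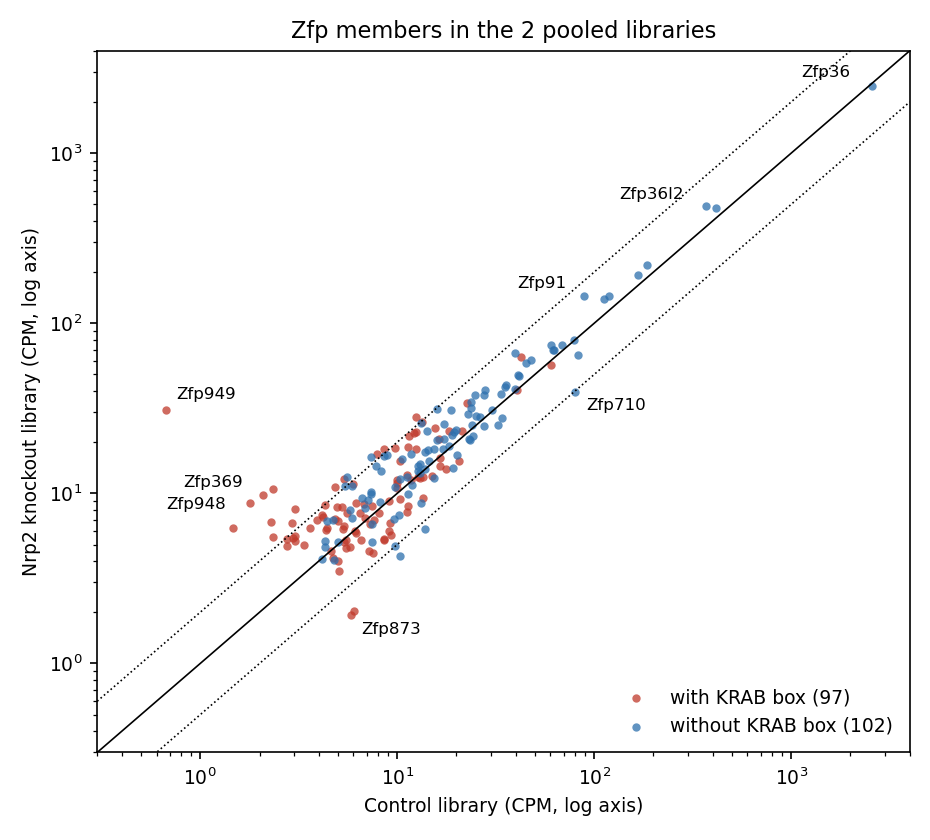
Levels of the 199 members in the control (x) and the knockout library (y), in CPM on log axes, with KRAB members in red and the others in blue. The solid line marks equal levels and the dotted lines 2-fold. Zfp949 lies alone far above the upper dotted line, while Zfp36, at the top right, lies on the line of equality.

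The 4 members with the next highest ratios were KRAB genes with few control reads. Zfp948, on chromosome 17, had 117 control and 587 knockout reads (1.78 and 8.76 CPM), a ratio of 4.90 (95% interval 1.37 to 31.6). Zfp369, on chromosome 13, had 136 and 656 reads, a ratio of 4.71 (95% interval 1.43 to 25.3). Zfp729b, also on chromosome 13, had 154 and 706 reads, a ratio of 4.48 (95% interval 1.45 to 21.05). Zfp729b encodes 30 fingers and shared 39.9% of its 50-base exon words with other genes, so that its reads may be split with near copies. Zfp959 had 96 and 422 reads, a ratio of 4.29 (95% interval 1.04 to 37.1), and shared 17.6% of its words. All 4 control values lay near or under 141 reads, the reads of 3 fragments, and the wide intervals reflect that.

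Better-read members past 2-fold had ratios just above it. Zfp869, a KRAB gene of chromosome 8, had 822 and 1894 reads (12.5 and 28.3 CPM), a ratio of 2.26 (95% interval 1.33 to 4.04). Zfp777, a KRAB gene of chromosome 6, had 561 and 1221 reads, a ratio of 2.13 (95% interval 1.12 to 4.40). Zfp280c, without a KRAB box, had 367 and 841 reads, a ratio of 2.24 (95% interval 1.02 to 5.67). Zfp687, also without a KRAB box and linked to osteoclast formation, had 486 and 1089 reads (ratio 2.19), but its exons overlap Pi4kb. Zfp597 had 520 and 1135 reads (ratio 2.14) and overlaps Zfp174 and Naa60. For Zfp719, Zfp12, Zfp963, Zfp40, Zfp84 and Zfp653, which were also past 2-fold, the interval included 1.

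The members lower in the knockout library were few and of different kinds. Zfp710, with 11 fingers and no KRAB box, had 5276 and 2657 reads (80.4 and 39.7 CPM), a ratio of 0.494 (95% interval 0.376 to 0.648). It was the best-read member past 2-fold in either direction, 2.03-fold lower in the knockout library. Zfp839 had 904 and 414 reads, a ratio of 0.449 (95% interval 0.220 to 0.907). Zfp691 had 682 and 286 reads, a ratio of 0.411 (95% interval 0.174 to 0.9498). The lowest ratios belonged to the KRAB genes Zfp873, with 384 and 129 reads (0.330), and Zfp931, with 398 and 137 (0.338), and both intervals included 1. Zfp385a, which is treated with the RNA-binding members, was the other member wholly below 1, a call that ended with DESeq2 size factors.

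Members with a KRAB box spread more widely than those without. Of the 97 KRAB members, 14 were 2-fold or more higher and 2 as much lower. Of the 102 others, 3 were higher and 3 lower. Their medians were close, 0.26 and 0.23, while the interquartile range was 0.97 wide for KRAB members and 0.44 for the others. KRAB members also had fewer reads, a median of 964 against 2428, and a level per kb of exon of 1.73 CPM in the control and 2.10 in the knockout library, against 3.22 and 3.63 for the others.

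Read number alone moved the share of genes past 2-fold, so the split was repeated within ranges of reads. Among genes with 500 to under 1000 reads, 12.1% of all genes were at least 2-fold higher, against 8 of 52 KRAB members (15.4%) and 0 of 13 others. With 1000 to under 2000 reads the shares were 8.33% of all genes, 4 of 25 KRAB members and 3 of 32 others. With 2000 to under 5000 reads they were 4.42%, 2 of 17 and 0 of 34. Lower levels were rarer among members in the first 3 ranges: 17.7% of all genes with 500 to under 1000 reads were lower by 2-fold or more, against 2 of 52 KRAB members and 1 of 13 others. With 2000 to under 5000 reads 4.12% of all genes were, and 0 of 51 members. In the range from 5000 reads, 1.99% of all genes and 1 of 26 members, Zfp710, were. The median log2 ratio of members lay between 0.18 and 0.32 in the 4 ranges, and that of all genes between -0.10 and 0.06.

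**Figure D3:**
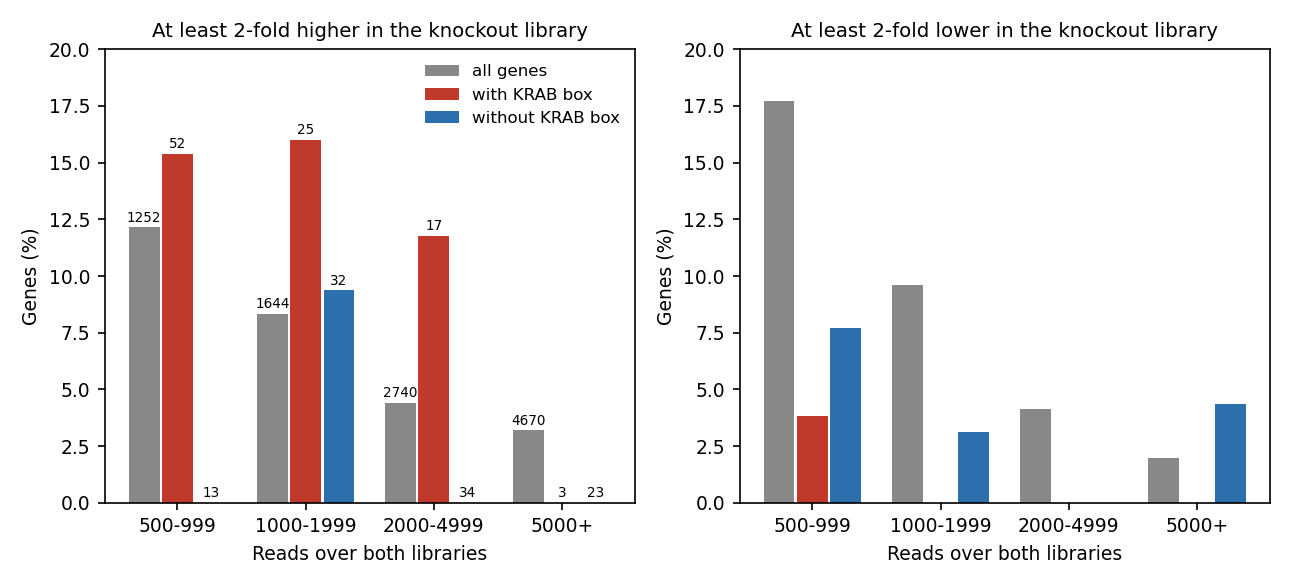
Share of genes (%) at least 2-fold higher (left) and lower (right) in the knockout library, by reads over both libraries, for all genes (grey), KRAB members (red) and other members (blue), with the number of genes above the bars at left. The grey bars fall with read number, KRAB members stand above them at left in the 3 lower ranges, and the red bars at right are absent from 1000 reads on.

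Base composition moved with the ratios too. KRAB members had a median exon GC content of 41.2% and the others of 52.0%. Among all protein-coding genes the median log2 ratio was 0.21 under 42% GC and -0.06 from 54% GC, and among members it was 0.46 (72 members) and 0.19 (48 members). With a trend on GC content and length removed, the median over members was 0.17 and over all genes 0.01. Of the 199 members, 13 were then higher by 2-fold or more and 5 lower, against 5.04% and 5.86% of all genes. Other zinc finger families are given for scale. The 33 Zbtb genes had a median log2 ratio of 0.19, with 5 at least 2-fold higher and 2 lower. The 6 Zscan genes had a median of -0.21 and the 7 Zkscan genes 0.34. All 10 Klf genes, Krüppel-like transcription factors, were above 0, with a median of 0.81, and 16 further genes with a KRAB box had a median of 0.07. No difference between these families was tested.

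The 3 CCCH genes had the most reads per kb of all members. Together they held 48.6% of the members' reads in the control and 45.2% in the knockout library. Zfp36, which encodes tristetraprolin, had 168130 and 167151 reads, 37.2% of all reads of members in the control and 32.6% in the knockout library. Its level per kb of exon was 738 and 719 CPM, the highest of the members, and its ratio of 0.974 (95% interval 0.936 to 1.01) lay close to 1. Under upper-quartile and total scaling its log2 ratio was -0.10 and the interval lay below 1. Zfp36l2 had 24364 and 32916 reads, a ratio of 1.32 (95% interval 1.20 to 1.47), or 105 and 139 CPM per kb. Zfp36l1 had 27288 and 31776 reads, a ratio of 1.14 (95% interval 1.03 to 1.26), and shared 54.4% of its words, mainly with Gm26669. So the 2 relatives were slightly higher in the knockout library beside a level Zfp36.

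RNA-binding, ribosomal and spindle proteins of the C2H2 type made up a list of 11 genes, all of them members. None was past 2-fold, the intervals of 3 lay above 1 and that of 1 below, and their median log2 ratio was 0.25. Over all genes the shares were 17.1% and 14.4%. Each of these 4 intervals included 1 under another scaling, those of Zfp207, Zfp622 and Zfp106 with upper-quartile factors or library totals and that of Zfp385a with DESeq2 size factors. Zfp207, a spindle and kinetochore protein, had 7395 and 9355 reads (ratio 1.24, 95% interval 1.03 to 1.502). Zfp622, a maturation factor of the large ribosomal subunit, had 7764 and 9681 reads (ratio 1.22, 95% interval 1.02 to 1.47). Zfp106, an RNA-binding protein needed in motor neurons, had 12203 and 14822 reads (ratio 1.19, 95% interval 1.03 to 1.38), but its log2 ratio was -0.02 once the trend on GC content and length was removed. Zfp385a, an RNA-binding partner in the p53 response, had 5461 and 4350 reads, a ratio of 0.781 (95% interval 0.615 to 0.994). Zfp598, a ubiquitin ligase that senses collided ribosomes, had 2720 and 3293 reads (ratio 1.19), and the interval included 1, as it did for Zfp326, Zfp638, Zfp830, Zfp346, Zfp593 and Zfp706.

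Of 7 KRAB proteins known for silencing retroelements or guarding imprints, 3 were members. Zfp445, which protects imprinted methylation, had 2799 and 4265 reads (42.6 and 63.7 CPM), a ratio of 1.49 (95% interval 1.11 to 2.04). Zfp809, which recognises the primer binding site of murine leukaemia viruses, had 491 and 564 reads (ratio 1.13, 95% interval 0.523 to 2.60). Zfp568, a repressor of a placental Igf2 transcript, had 983 and 852 reads (ratio 0.850, 95% interval 0.482 to 1.54). Zfp57, Zfp819, Zfp708 and Zfp932 had too few reads to be members. Zfp57, the other guardian of imprints, had 87 control reads and 0 knockout reads, and both values are within what 3 fragments allow.

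The corepressor genes that KRAB proteins act through are not members and gave no common direction. Of 19 such genes, 7 were above 0, against 52.3% of all genes, and the median log2 ratio was -0.15. Intervals lay below 1 for 4 and above 1 for 3, against 14.4% and 17.1% of all genes. Trim28, the protein that binds the KRAB box, had 7804 and 6351 reads (ratio 0.798, 95% interval 0.654 to 0.974). Setdb1, the methyltransferase, had 2800 and 3085 reads (ratio 1.08, 95% interval 0.788 to 1.49). Uhrf1, Cbx5 and Hdac1 also had intervals below 1, with ratios of 0.457, 0.620 and 0.745. Morc3, Atrx and Mphosph8, silencing factors that act on heterochromatin, had intervals above 1, with ratios of 1.52, 1.76 and 2.02.

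Other DNA-binding regulators formed a list of 22 genes with 19 members, again none past 2-fold. Their median log2 ratio was 0.28, and 4 had intervals above 1, a share near the 17.1% of all genes. With upper-quartile factors or library totals the intervals of 3 of them, Zfp281, Zfp609 and Zfp367, included 1. Zfp292 had 2589 and 4463 reads, a ratio of 1.69 (95% interval 1.24 to 2.33). Zfp281, a repressor of pluripotency genes, had 1626 and 2545 reads (ratio 1.53, 95% interval 1.04 to 2.32). Zfp609, a partner of the cohesin loader and the Integrator complex, had 1822 and 2713 reads (ratio 1.46, 95% interval 1.01 to 2.16), and Zfp367 had 561 and 1116 (ratio 1.95, 95% interval 1.02 to 4.05). The GC-box factor Zfp148 (ratio 1.21), Zfp143 (1.18), which sits at promoters and chromatin loops, and Zfp703 (1.15), a breast cancer oncogene, had intervals that included 1. Zfp410, an activator of Chd4, had 1602 and 1463 reads (ratio 0.895). Zfp423, Zfp462 and Zfp521 had too few reads to be members.

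Of 4 genes listed for immune signalling, Zfp91 and Zfp318 were members. Zfp91, a ubiquitin ligase of the noncanonical NF-kappaB pathway, had 5848 and 9626 reads (89.1 and 144 CPM), a ratio of 1.61 (95% interval 1.32 to 1.99). Zfp318, best known for the splicing choice that gives surface IgD in B cells, had 1280 and 1537 reads (ratio 1.18, 95% interval 0.741 to 1.92). Zfp831 had too few reads, and Zfp683, known from tissue-resident lymphocytes, had 0 reads in both libraries.

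**Figure D4:**
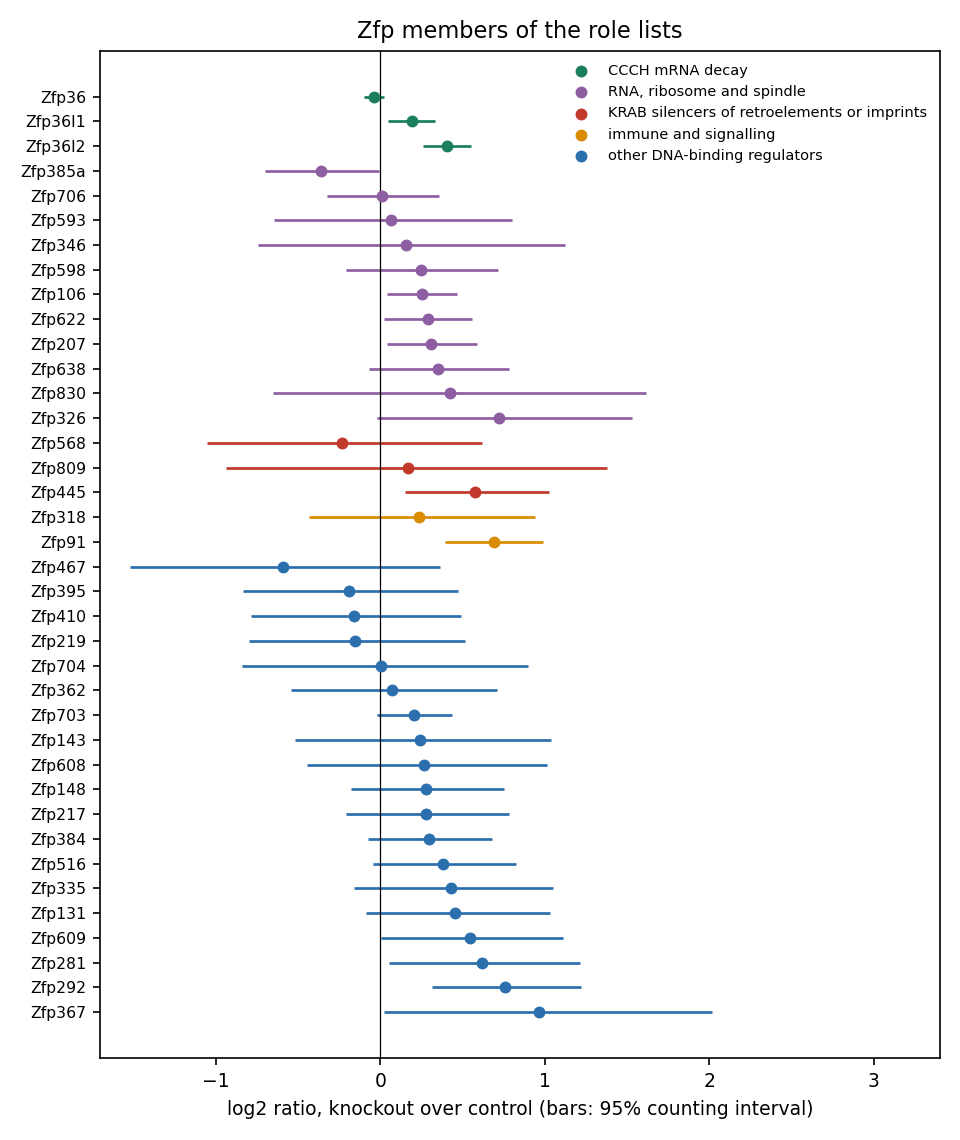
log2 ratios (knockout over control) of the members in the 5 role lists, coloured by list, with 95% counting intervals as bars. The bars are short for well-read genes such as Zfp36. Zfp36l2, Zfp445 and Zfp91 lie to the right of 0 with their whole bars, and Zfp385a to the left, although its interval reached 1 with DESeq2 size factors.

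Clusters were defined as runs of Zfp genes with at most 500 kb between neighbours, and 16 of them held at least 3 members each, 88 members in all. In these 88 members 10 were at least 2-fold higher (11.4%) and 0 lower, with a median log2 ratio of 0.27. Among the 111 members elsewhere 7 were higher (6.31%) and 5 lower (4.50%), with a median of 0.21. The shares of all genes were 5.42% and 5.69%. Clustered members had fewer reads, a median of 1072 against 2226. The cluster medians ran from -0.09 to 0.93, and the range between the highest and lowest member of a cluster ran from 0.04 to 2.98. The widest range was that of the chromosome 17 cluster with Zfp948, which had under 3 fragments in the control library. Intervals lay above 1 for 12 of the 88 and below 1 for 0, against 17.1% and 14.4% of all genes. Differences between cluster members were not tested. In 14 of the 15 clusters with other genes of at least 500 reads nearby, the median of the Zfp members lay above the median of those neighbours. The exception was the chromosome 8 cluster, at -0.09 against 0.08.

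The largest run lies at chr17:21008903-23599487 and has 23 Zfp genes, of which 16 were members, all with a KRAB box. Of these, 11 (68.8%) were above 0, the same share as in all 199 members. The 16 had a median log2 ratio of 0.61 and values from -0.69 (Zfp213) to 2.29 (Zfp948). Zfp942, with 351 and 811 reads (ratio 2.26, 95% interval 1.01 to 5.86), and Zfp40, with 193 and 450 reads (ratio 2.28), were the other 2 past 2-fold. The member just before Zfp948 on the same strand, Zfp52, had 1084 and 1079 reads (ratio 0.976, 95% interval 0.578 to 1.69), an interval that overlaps that of Zfp948. Zfp53, just before Zfp52, had 393 and 758 (ratio 1.89, 95% interval 0.863 to 4.66). The 13 other genes nearby had a median of -0.37.

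On chromosome 13 a run at chr13:67038596-67827002 also has 23 Zfp genes, but only 8 were members. Zfp729b (ratio 4.48) and Zfp729a (0.998, with 595 and 606 reads) are neighbouring genes there, and 6 of the 8 were above 0, with a median log2 ratio of 0.69. Zfp874a, Zfp748 and Zfp738 had ratios between 1.77 and 1.95 on under 200 control reads each, and Zfp65 had 749 and 563 reads (ratio 0.737). For each of these genes the interval included 1. Over the whole of chromosome 13, where Zfp369 and Zfp367 also lie, 12 of 15 members (80%) were above 0, with a median of 0.80. Chromosomes 2 and 4 each had 8 of 9 members above 0, with medians of 0.35 and 0.51. Chromosome 7, with 40 members, had a median of 0.15.

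All members were above 0 in 4 clusters of 3 or 4 members. At chr4:145510759-147848366 Zfp984 had 799 and 1512 reads (ratio 1.85, 95% interval 1.07 to 3.38), and Zfp990, Zfp992 and Zfp991 had ratios of 1.43, 1.45 and 1.65. The intervals of Zfp990, Zfp992 and Zfp991 included 1. Zfp984 shared 54.5% of its words with other genes, mainly Gm13212, and Zfp991 shared 82.2%, mainly with Znf41-ps. Zfp992 shared 43.0%, mainly with Zfp991. How reads from shared words entered these ratios was not tested. At chr18:23954692-24020810 Zfp24 had 1040 and 2102 reads (ratio 1.98, 95% interval 1.23 to 3.32), Zfp35 had 585 and 1119 (ratio 1.87, 95% interval 0.987 to 3.84) and Zfp397 had 484 and 687 (ratio 1.39, 95% interval 0.663 to 3.17). None of these 3 has a KRAB box, and their words were at most 1.22% shared. At chr9:22055411-22307648 Zfp810 had 639 and 1241 reads (ratio 1.90, 95% interval 1.03 to 3.76), Zfp653 a ratio of 2.04 and Zfp809 one of 1.13. For Zfp653 and Zfp809 the interval included 1. At chr7:24081924-25227507 Zfp61, Zfp526, Zfp574 and Zfp180 had ratios of 1.85, 1.57, 1.41 and 1.07, each with an interval that included 1.

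Members on both sides of 0 were found in most of the other clusters, that on chromosome 8 among them. At chr8:69209038-69791178 Zfp869 and Zfp963 were past 2-fold, with ratios of 2.26 and 2.36, while Zfp930 (475 and 307 reads), Zfp866 (737 and 520) and Zfp868 (856 and 823) had ratios of 0.634, 0.692 and 0.942. Of these genes only Zfp869 had an interval that excluded 1. The 95% interval was 0.256 to 1.61 for Zfp930 and 0.345 to 1.42 for Zfp866. The run at chr7:27689340-28380253 was even, with Zfp626, Zfp780b and Zfp36 at ratios between 0.963 and 0.990. At chr17:32765496-33631779 Zfp871 had 873 and 1768 reads (ratio 1.98, 95% interval 1.18 to 3.50), and Zfp952, of the same run, 495 and 300 (ratio 0.594).

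**Figure D5:**
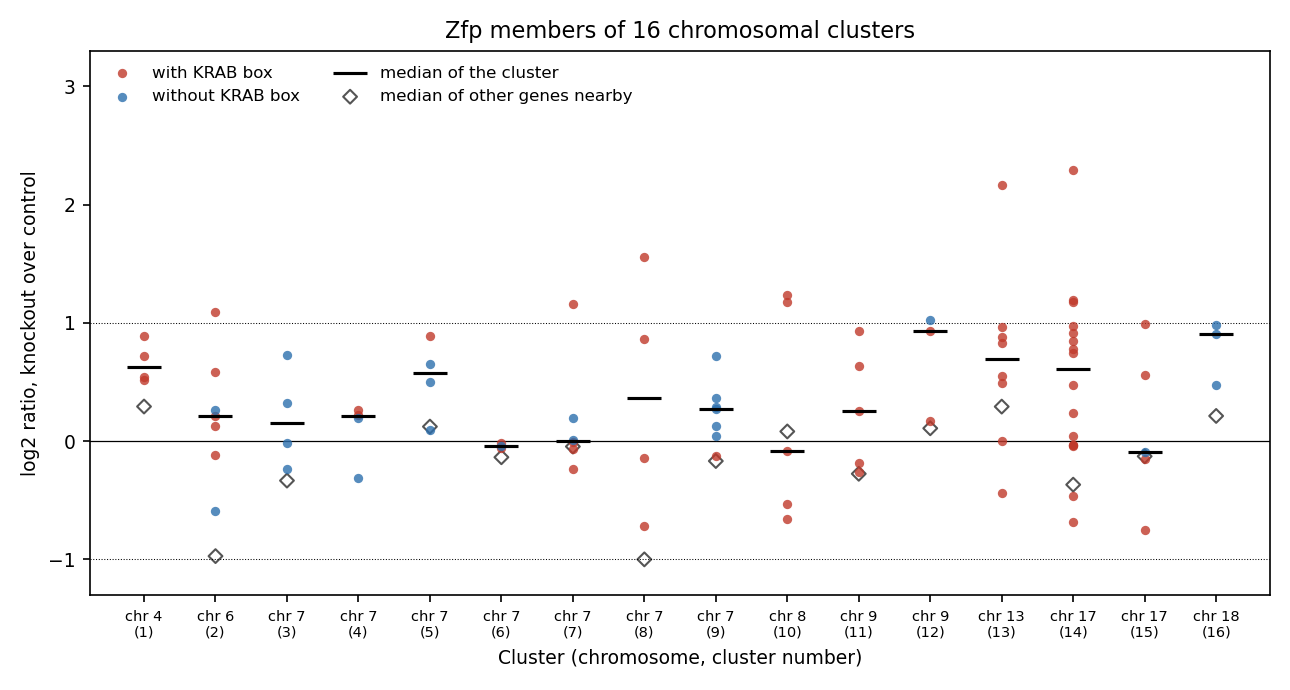
log2 ratios (knockout over control) of the members of 16 chromosomal clusters, KRAB members in red and others in blue, with the cluster median as a bar and the median of other genes nearby as an open diamond. Dotted lines mark 2-fold. The bars lie above the diamonds except in the chromosome 8 cluster, and red points of the chromosome 17 cluster (14) spread from -0.69 to 2.29.

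Markers of other cells moved between the libraries beside these results. The 10 T cell markers each had a level lower by 2-fold or more after knockout, with a summed level of 199 control and 62.7 knockout CPM. Dendritic cell markers summed to 835 and 374 CPM with 5 of 6 lower and Xcr1 at 0 in the knockout library, and endothelial markers to 86.5 and 22.6 with 5 of 6 lower. NK markers summed to 45.8 and 15.7 CPM with 4 of 6 lower, and cell cycle genes to 172 and 90.7 with 7 of 8 lower. Epithelial markers summed to 188 and 121 CPM and fibroblast markers to 326 and 195, while B cell markers summed to 67.1 and 75.2 with 4 of 6 lower and Pax5 at 0 in the knockout library. Adipocyte markers stood higher, with sums of 109 and 195 CPM, 5 of 6 past 2-fold and Adipoq, Plin1 and Retn at 0 in the control library. Macrophage markers summed to 11711 and 12024 CPM, with 1 of 8 at least 2-fold higher, the efferocytosis receptor gene Mertk (ratio 3.57, 95% interval 2.95 to 4.36). Of these 8, intervals lay above 1 for 3 and below 1 for 5, among them Adgre1 (ratio 0.729) and Csf1r (ratio 0.835). Neutrophil markers summed to 1398 and 1394 CPM but went both ways. Ngp had 2 control and 1033 knockout reads, Ly6g 0 and 96, and Mmp9 was 3.05-fold lower in the knockout library (ratio 0.328, 95% interval 0.286 to 0.376). The intervals of Xcr1, Pax5, Ly6g, Plin1 and Retn included 1, so their counts of 0 are within counting error. That of Adipoq lay above 1. Over all genes with at least 500 reads, 5.42% were higher and 5.69% lower by 2-fold or more, but some markers had fewer reads. The mitochondrial share of reads was 1.85% and 1.76%. The part of these cells in the Zfp ratios was not tested.

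Read assignment limits single genes. Of the 199 members, 41 shared more than 10% of their 50-base exon words with another gene and 7 more than 50%. The span of another gene, introns included, overlapped that of 83 members, 63 of them on the opposite strand. In 13 cases the overlapping gene had more reads than the member. Overlap of exons alone was not counted, so how many member counts this affects is not known.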

How the data were processed

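Per the labels, mRNA libraries were stranded and made with an Illumina TruSeq kit. Reads were processed with cutadapt, HISAT2 and featureCounts on GRCm38, per the submitters' processing notes. The sources used here do not give versions, the annotation release or any use of strand in counting. The authors deposited whole-number counts of read 1 per Ensembl gene, per the file headers, with no normalisation. The authors also deposited a comparison table, of which the log2 fold change, the p-value and the adjusted p-value were used for members. Its normalised signal and its score column were deposited by the authors and not used here.

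Of 49585 identifiers 49326 matched GENCODE mouse release M21, which gave symbols, coordinates, exon lengths and GC content. Libraries were scaled with TMM factors (edgeR 4.0.16, R 4.3.3). Log2 ratios used a prior of 0.5 reads. Intervals and the floor of 3 fragments used reads per fragment, the median reads of genes with more than 4 reads in 1 library and 0 in the other, because no molecular identifiers are named. Read totals are in the report. With 1 library per group no model has residual degrees of freedom, so members were described by 2-fold size and by interval.

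KRAB boxes were found with a profile (HMMER 3.4) in translated coding sequences, and word sharing with 50-base words of all exons. The profile replaced incomplete patterns after member values had been seen. Scripts were tested on simulated data. Named genes were Zfp949, up to 10 members per direction with the largest ratios whose interval excluded 1, the 8 with most reads per kb, members of the role lists and clusters, the genes at the read minimum and the neighbours of Zfp949. Further members past 2-fold, corepressor genes outside the members and markers were named beside counts. The members and lists were chosen with earlier results of these data known. Alternatives were other scalings (DESeq2 1.42.0 size factors among them), prior counts, read minimums, undivided reads, a trend on GC content and length, cluster gaps and word sharing.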

Additional observations from a re-analysis of the deposited data

How the results depend on the processing

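The median log2 ratio of the members stayed above 0 under every alternative run, at 0.17 with library totals and 0.17 with the trend on GC content and length removed. Members wholly above 1 numbered 30, and 19 with upper-quartile factors and 19 with library totals. No share of all genes is given beside the counts of 19. The read minimum set the number of members past 2-fold: 22 (17 higher, 5 lower) became 112 (69 and 43) with no minimum, 81 (47 and 34) from 50 reads, 11 (9 and 2) from 1000 and 3 (2 and 1) from 2000. The share of all genes past 2-fold fell with read number too, as given above by range of reads. From 2000 reads 21 members had intervals that excluded 1, 19 above and 2 below. With 2000 to under 5000 reads, 331 of 2740 genes were wholly above 1 and 303 below, against 11 and 0 of 51 members. From 5000 reads it was 1236 and 907 of 4670 genes, against 8 and 2 of 26 members. On undivided reads 160 members had intervals that excluded 1, 119 above and 41 below. No share of all genes is given for undivided reads, so nothing is read from those counts. Zfp106 turned to a log2 ratio of -0.024 with the trend removed. Of 132 single members, 11 lost and 1 gained an interval excluding 1 with upper-quartile factors, and as many with library totals. DESeq2 size factors ended 1 call, that of Zfp385a. The protein identity alternative was not run. In its place, chosen after seeing the data, the 41 members with more than 10% shared words were left out. That left 17 members past 2-fold, against 22 of all 199, themselves the same share as the 11.1% of all genes. No share of all genes with at most 10% shared words is given, so nothing is read from the 17. No paired analysis was possible because each group has 1 library, and for the same reason no library could be left out. If the estimates of 47 and 24 reads per fragment hold, a gene with 500 reads rests on few captured fragments.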
